A study of Mus musculus with 60 samples.

Results

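The genes described here write, erase or act on histone marks: 65 protein-coding genes named as lysine demethylases (Kdm, 18 genes), lysine methyltransferases and their SET-domain relatives (Kmt, 8, and Setd, 10), lysine acetyltransferases (Kat, 8), histone deacetylases (Hdac, 11) and chromodomain helicases (Chd, 10). They were picked by gene name alone, out of 55414 genes in the deposited table, 21884 of them protein-coding. A further 7 pseudogene and non-coding entries with matching names were left out. The libraries came from the mPFC (medial prefrontal cortex) of DBA2/J mice expressing GFP-L10a, a ribosomal protein fused to a fluorescent tag, in a study of social defeat over 5 days, a stress given by exposure to an aggressive mouse. The design text does not say which groups went through it. Groups named SA, SA:ANH, ANH and RES are called subtypes in the labels, which do not spell these names out, and NS is the remaining group. Each group had 6 IP libraries, made by pulling down the tagged ribosomes through GFP, with aPVT projector given as the cell type, and 6 Input libraries of bulk mPFC RNA, 60 in all. The labels give neither the age of the mice, nor the promoter or virus that drove the tag, nor whether each library was a separate animal. The p-values therefore measure the spread among the sequenced libraries alone, which may be technical.

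Methyltransferases and demethylases set the methylation of histone lysines, acetyltransferases and deacetylases set their acetylation, and chromodomain helicases use ATP to slide or exchange nucleosomes. Mutations in several of these genes, Chd2, Chd8, Kmt2a, Kmt2d and Kdm5c among them, cause neurodevelopmental disorders, and class IIa deacetylases such as Hdac4 and Hdac5 move between the cytoplasm and the nucleus of neurons with activity. Messenger RNA on ribosomes is what was measured in the pulldown, not the proteins, their activity or histone marks.

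Library totals ranged from 19078906 to 27073413 counts. Rpl10a, which encodes the untagged form of the pulled-down protein, stood 2.28 ± 0.03 (SE) higher in IP than in Input on the log2 scale. Reads of the tagged form may be counted with it, which was not tested. Its mean level in IP, in CPM (counts scaled to library size), was 366 in NS, 479 in RES, 364 in ANH, 373 in SA and 426 in SA:ANH. Summed levels of 10 excitatory neuron markers were 5040 to 6724 CPM in IP and 3854 to 4448 in Input. Those of 10 inhibitory neuron markers were 66.8 to 183 CPM in IP and 1144 to 1342 in Input. Sums of 8 layer 6 corticothalamic neuron markers were 66.4 to 125 CPM in IP and 379 to 473 in Input. The sum of 10 oligodendrocyte markers differed by group in both fractions: in IP it was 244 to 293 CPM in NS, 956 to 1063 in RES, 655 to 683 in ANH, 210 to 236 in SA and 147 to 179 in SA:ANH. None of the 10 was at 0 in any of these groups. In IP the sum of 9 layer 5 extratelencephalic neuron markers was 1461 to 1599 CPM in NS, 1305 to 1393 in RES, 1098 to 1162 in ANH, 1561 to 1750 in SA and 915 to 1018 in SA:ANH. Sums of 5 red cell markers in IP were 14.4 to 23.2 CPM in NS, 22.3 to 34.9 in RES, 23.2 to 27.3 in ANH, 38.2 to 50.9 in SA and 42.0 to 51.8 in SA:ANH, and those of 10 astrocyte markers 264 to 372 CPM over all groups. The part of these marker differences in the results below was not tested. In such samples, fewer cells of a type and less RNA per cell cannot be told apart.

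All 65 genes were detected well enough to be tested in each fraction. Per kilobase of exon, Setd3, an enzyme known for methylating actin, was the highest in both fractions, at 55.7 ± 3.89 CPM per kb in IP and 55.3 ± 3.62 in Input (SD over 30 libraries). In IP it was followed by Chd3, a core helicase of the NuRD deacetylase complex, at 43.1 ± 3.62 CPM per kb, Hdac11 at 39.4 ± 2.85 and Hdac2 at 35.3 ± 3.04. The SD ranges of Hdac11 and Chd3 overlapped in IP, as did those of Chd3, Kdm1a and Kat8 in Input, at 28.2 ± 2.67, 29.6 ± 1.99 and 27.2 ± 2.87 CPM per kb. At the other end were Kat2b, Chd7 and Hdac7, with 0.165 ± 0.124, 0.204 and 0.328 ± 0.156 CPM per kb in IP. The median gene of the set reached 3.44 CPM per kb in IP and 2.63 in Input, against 5.66 and 5.06 for all protein-coding genes tested. These genes have long transcripts, with a median exon length of 5935 bases against 3458 for the protein-coding genes tested in IP.

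**Figure D1:**
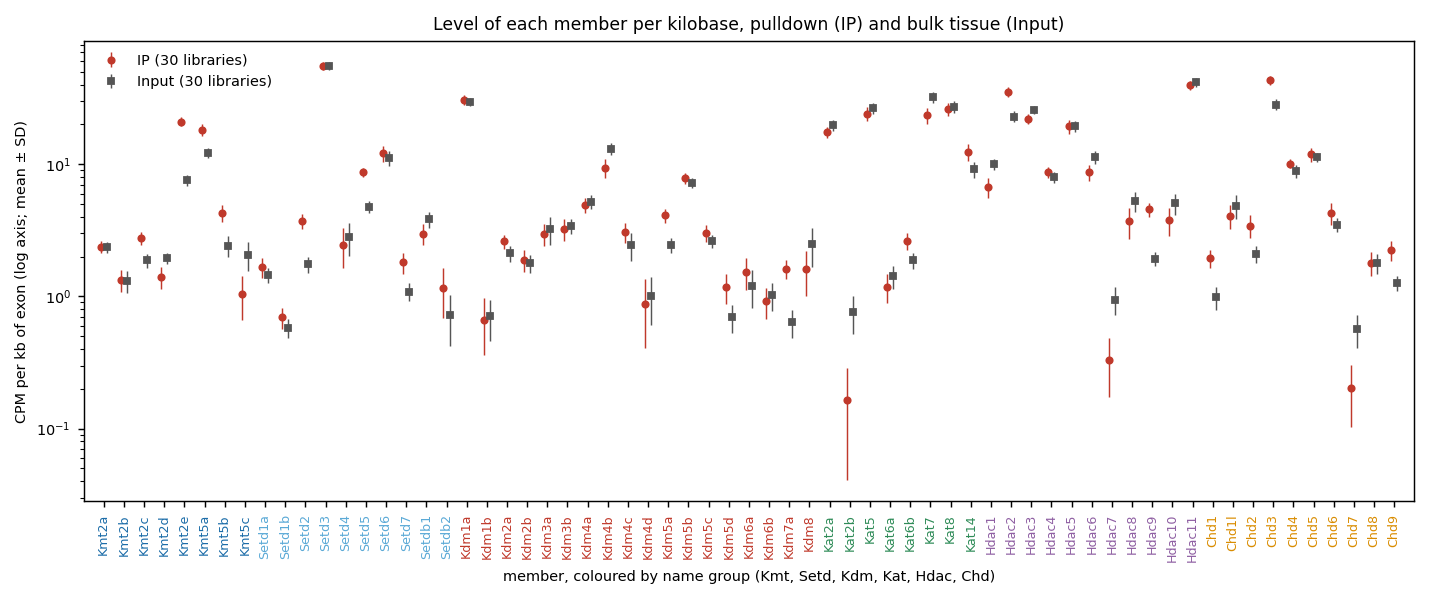
Level of each of the 65 genes in CPM per kilobase of exon (log axis), mean and SD over 30 IP libraries (circles) and 30 Input libraries (squares), with names coloured by group. Setd3 is highest in both fractions, and Kat2b, Chd7 and Hdac7 are lowest in IP.

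Close relatives within the set differed in level. Hdac2 stood at 35.3 ± 3.04 CPM per kb in IP and Hdac1 at 6.70 ± 1.14, and a processed pseudogene, Hdac1-ps, carried a mean of 104 counts per IP library and 173 per Input library, so reads of Hdac1 may be split between both entries. Of the class IIa deacetylases, Hdac5 was at 19.4 ± 2.36 CPM per kb in IP, Hdac4 at 8.71 ± 0.863, Hdac9 at 4.56 ± 0.541 and Hdac7 at 0.328 ± 0.156. Kdm5d, the Y-linked copy of the demethylase Kdm5c, had reads in all 60 libraries, with a median ratio to Kdm5c per kb of 0.405 in IP and 0.280 in Input. The acetyltransferases Kat2a and Kat2b, the alternative acetyltransferases of SAGA-type complexes, stood at 17.6 ± 1.68 and 0.165 ± 0.124 CPM per kb in IP.

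Ribosome-bound RNA of the labelled neurons held more of most Setd genes and chromodomain helicases than bulk tissue, and less of most deacetylases and acetyltransferases. Between 30 IP and 30 Input libraries 51 of the 65 genes passed the test (edgeR quasi-likelihood test, Benjamini-Hochberg adjusted p under 0.05 over all genes), 32 higher and 19 lower, where 75.4% of all 18937 genes passed (32.8% higher and 42.6% lower). By name group, 7 of 10 Setd, 4 of 8 Kmt, 9 of 18 Kdm and 7 of 10 Chd genes were higher, and 7 of 11 Hdac and 5 of 8 Kat genes were lower. The median log2 fold change was 0.09 over the set and -0.08 over all genes, and the latter moved to -0.13 with RLE factors.

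The highest of the set in IP was Kmt2e, a SET-domain protein that binds methylated histone H3, at 156 ± 12.9 CPM in IP and 54.9 ± 5.33 in Input, a log2 fold change of 1.51 ± 0.03. Kdm7a, a demethylase of repressive marks (1.38 ± 0.07), the class IIa deacetylase Hdac9 (1.27 ± 0.04), Setd2, which trimethylates histone H3 in transcribed genes (1.13 ± 0.05), and the remodeler Chd1 (1.01 ± 0.07) came next. In each of these 5 genes no IP library overlapped an Input library. The share of all genes without overlap was not counted, here or in the group comparisons below. Lowest were Kat2b (-2.21 ± 0.26), Hdac7 (-1.52 ± 0.14), Chd7 (-1.48 ± 0.14), Kmt5c, which trimethylates histone H4 (-0.96 ± 0.12), and Kdm8 (-0.59 ± 0.15), all with overlapping libraries and all below 6 CPM in both fractions.

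**Figure D2:**
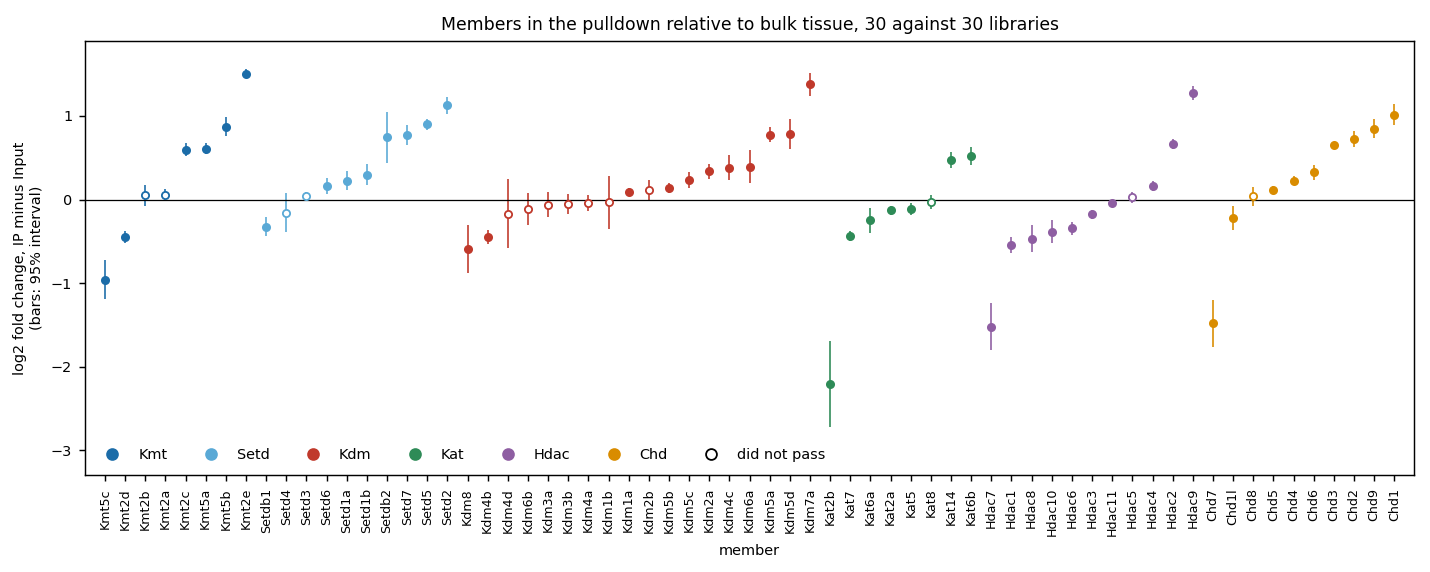
Log2 fold change between IP and Input for each of the 65 genes, ordered within name group, with 95% intervals; open circles did not pass the test. Kmt2e is highest at 1.51 and Kat2b lowest at -2.21.

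Relatives again parted. Hdac2 was higher in IP (0.66 ± 0.03) and Hdac1 lower (-0.54 ± 0.05), Kat6b higher (0.53 ± 0.05) and Kat6a lower (-0.25 ± 0.08), and Kmt2c higher (0.60 ± 0.04) and Kmt2d lower (-0.45 ± 0.04). Across genes, which are not independent replicates, the rank correlation of this fold change with exon length was 0.43 over the 65 genes and 0.17 over all genes tested. The part of length in these differences was not tested. Kmt2e overlaps Srpk2 on the opposite strand (2431 and 3213 counts per library) and Hdac7 overlaps Slc48a1 (77.8 and 6476), and no source used here states the strand setting of the counting, so their reads may not be fully separated. In all, 12 of the 65 genes overlap another gene with over 20 counts per library.

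Among the subtypes, 5 genes with the smallest adjusted p in the test of any difference between the 5 groups in IP were Chd5 (6.22e-06), Kat7 (1.16e-05), Kmt2d (7.61e-05), Chd2 (9.32e-05) and Chd6 (0.00071). In IP 14 of 65 genes passed that test, beside 33.1% of all genes, and in Input 13 of 65, beside 12.9%. Input was led by Chd3 (2.73e-07), Chd5 (0.00341), Kmt2e (0.00354), Hdac4 (0.00451) and Hdac2 (0.00515). Chd3, Chd5, Chd8, Hdac5, Hdac11 and Kmt2d passed in both fractions. Over the 14 comparisons with NS or RES, the largest log2 fold change of a gene that passed was 0.59 in size. Genes that did not pass reached 0.85 in SA against NS and 1.02 in SA against RES, both in IP. Of the 65 genes 21 passed at least once and 44 never did. How many of all genes passed at least once, or in both fractions, was not counted. The comparisons with NS share its 6 libraries in each fraction and those with RES share its 6. A subtype set against NS and against RES also enters with the same 6 libraries. Calls repeated across any of these are not independent.

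**Figure D3:**
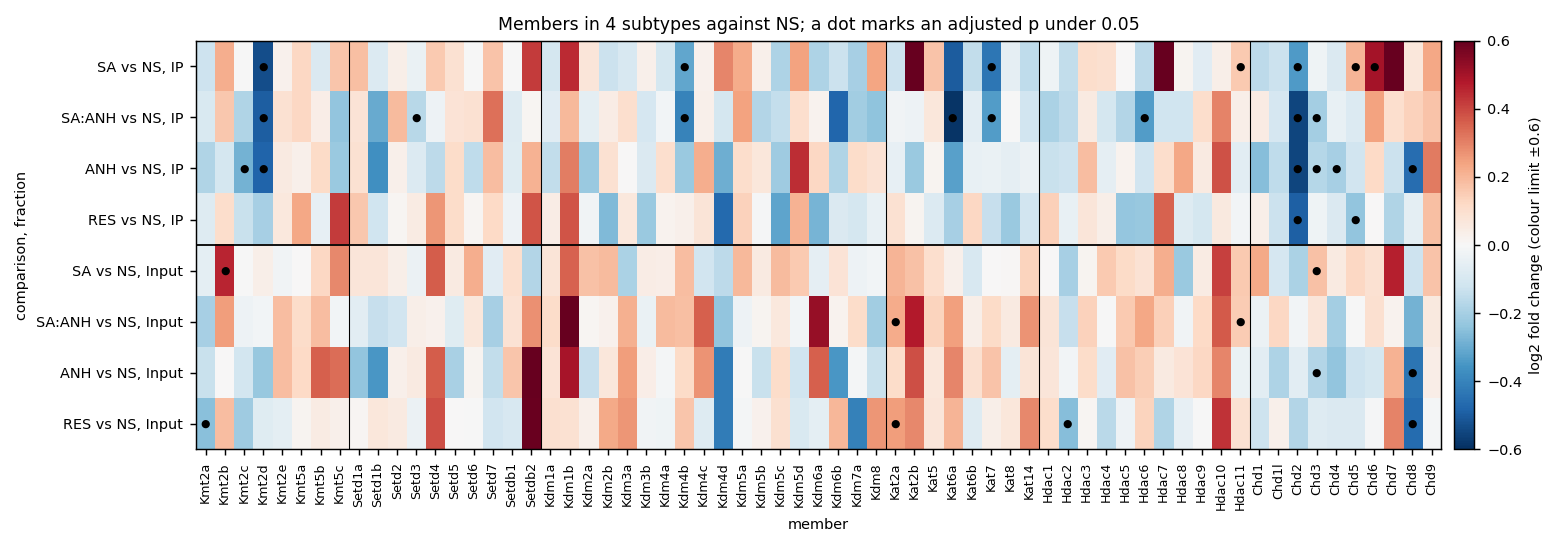
Log2 fold change of each of the 65 genes against NS in 4 subtypes, in IP (upper 4 lines) and Input (lower 4 lines); colours end at 0.6 in either direction, so larger values take the end colour, and a dot marks an adjusted p under 0.05. Dots for Chd2 run through all 4 IP comparisons and those for Kmt2d through SA, SA:ANH and ANH.

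In SA neurons against NS, the enhancer methyltransferase Kmt2d and the acetyltransferase Kat7 fell, as did Chd2 and the demethylase Kdm4b, while the helicases Chd6 and Chd5 and the deacetylase Hdac11 rose. These 7 of 65 genes (3 higher, 4 lower) stand beside 16.6% of all genes that passed (9.39% higher and 7.2% lower), and the median log2 fold change was 0.00 over the set and 0.02 over all genes.

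Kmt2d places the methyl mark of enhancers together with its relative Kmt2c. Its level in NS IP libraries ranged from 32.0 over a median of 35.7 to 37.8 CPM, and in SA IP from 21.0 over 23.5 to 28.4 CPM. Every SA library lay below every NS library (log2 fold change -0.53 ± 0.10, adjusted p = 0.000189). Kmt2c, with medians of 44.2 CPM in NS and 45.4 in SA, gave -0.00 ± 0.08 (adjusted p = 0.984; 95% interval -0.16 to 0.15).

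Kat7 acetylates histones H3 and H4 near promoters and replication origins. NS IP libraries held 89.9, 93.8 and 99.6 CPM (lowest, median, highest) and SA IP libraries 62.9, 71.4 and 74.6 CPM. The groups did not overlap (-0.43 ± 0.07, adjusted p = 2.55e-05). Kat6a, an acetyltransferase of the same MYST family, had a log2 fold change of -0.50 ± 0.18 and did not pass (adjusted p = 0.0541).

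Chd6, a remodeler studied in oxidative stress responses, stood at 36.3, 38.7 and 46.4 CPM in NS IP and at 49.0, 56.7 and 63.4 CPM in SA IP (lowest, median, highest). All 6 SA libraries were above all 6 NS libraries (0.50 ± 0.10, adjusted p = 0.000733). Chd5, a neuronal helicase of NuRD-type complexes, rose by 0.20 ± 0.06 (adjusted p = 0.0166) and Hdac11, the single class IV deacetylase, by 0.15 ± 0.05 (adjusted p = 0.0267), with overlapping groups. Chd2 fell by 0.34 ± 0.10 (adjusted p = 0.0193), from a median of 40.0 CPM in NS to 31.2 in SA, again with overlap. Kdm4b, which removes repressive trimethylation from histone H3, fell by 0.31 ± 0.10 (adjusted p = 0.0331), and did not pass without NS IP replicate 1 (adjusted p = 0.05) or without SA IP replicate 5 (adjusted p = 0.0705). In SA IP 6 of 10 excitatory, 3 of 10 inhibitory, 3 of 8 layer 6 and 4 of 10 oligodendrocyte markers fell, and none of these lists had a marker that rose. Astrocyte markers gave 1 higher and 5 lower of 10, and layer 5 extratelencephalic markers 5 higher and 2 lower of 9. Red cell markers rose in 4 of 5 and endothelial and mural markers in 3 of 9 tested. The part of these differences was not tested.

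Of the genes that passed in SA IP, Kmt2d, Kat7 and Chd6 separated SA from NS libraries without overlap. The share of all genes doing so was not counted. Hdac2 did so too, at 100 to 116 CPM in SA IP and 118 to 126 in NS IP, but did not pass. The 250 bases before the annotated start of Kmt2d, Kat7 and Chd6 follow, from RefSeq on GRCm38.p6 and on the minus strand, 5′ to 3′. Capitals mark GC boxes (GGGCGG) and CCAAT boxes (CCAAT) found on either strand.
Kmt2d: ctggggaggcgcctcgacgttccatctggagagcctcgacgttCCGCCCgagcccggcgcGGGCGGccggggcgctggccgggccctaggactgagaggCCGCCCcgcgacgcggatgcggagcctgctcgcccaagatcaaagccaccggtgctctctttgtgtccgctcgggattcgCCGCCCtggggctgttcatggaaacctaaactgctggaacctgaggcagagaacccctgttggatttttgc
Kat7: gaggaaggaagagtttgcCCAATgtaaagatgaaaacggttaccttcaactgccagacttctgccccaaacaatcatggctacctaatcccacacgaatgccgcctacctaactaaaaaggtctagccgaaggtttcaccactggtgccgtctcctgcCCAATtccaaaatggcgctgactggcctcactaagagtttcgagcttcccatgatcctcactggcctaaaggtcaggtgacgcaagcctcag
Chd6: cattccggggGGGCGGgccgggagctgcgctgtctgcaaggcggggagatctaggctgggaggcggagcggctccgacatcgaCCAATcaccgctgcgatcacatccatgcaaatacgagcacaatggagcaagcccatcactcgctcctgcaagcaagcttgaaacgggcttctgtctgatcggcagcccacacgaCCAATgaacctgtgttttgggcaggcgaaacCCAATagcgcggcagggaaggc
They lie at chr15:98871206-98871455 (Kmt2d), chr11:95310247-95310496 (Kat7) and chr2:161109087-161109336 (Chd6). The Kmt2d stretch held 4 GC boxes, no CCAAT box and 26 CpG dinucleotides. Kat7, which fell in SA as Kmt2d did, had 2 CCAAT boxes, no GC box and 8 CpG. In Chd6, which rose, there were 1 GC box, 3 CCAAT boxes and 19 CpG. Promoters of 49 of the 65 genes were matched, taking the first start listed. A GC box was found in 59.2% of them and in 42.7% of 17491 protein-coding promoters of the same length, and a CCAAT box in 46.9% and 36.3%. The median CpG count was 17 in the set and 10 in all, and 85.7% against 50.4% had at least 10. All 65 genes were detected here, but the 17491 promoters were not limited to detected genes. The part of this in the promoter contrasts was not tested. An ETS motif (CCGGAAG) was in 10.2% against 9.12%, an E-box (CACGTG) in 4.08% against 6.64% and TATAAA in 6.12% against 12.4%. Neither a CRE (TGACGTCA) nor the NRF1 motif was in any of the 49, against 2.01% and 1.06% of all promoters. A match describes letters in the window and not a bound site.

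**Figure D4:**
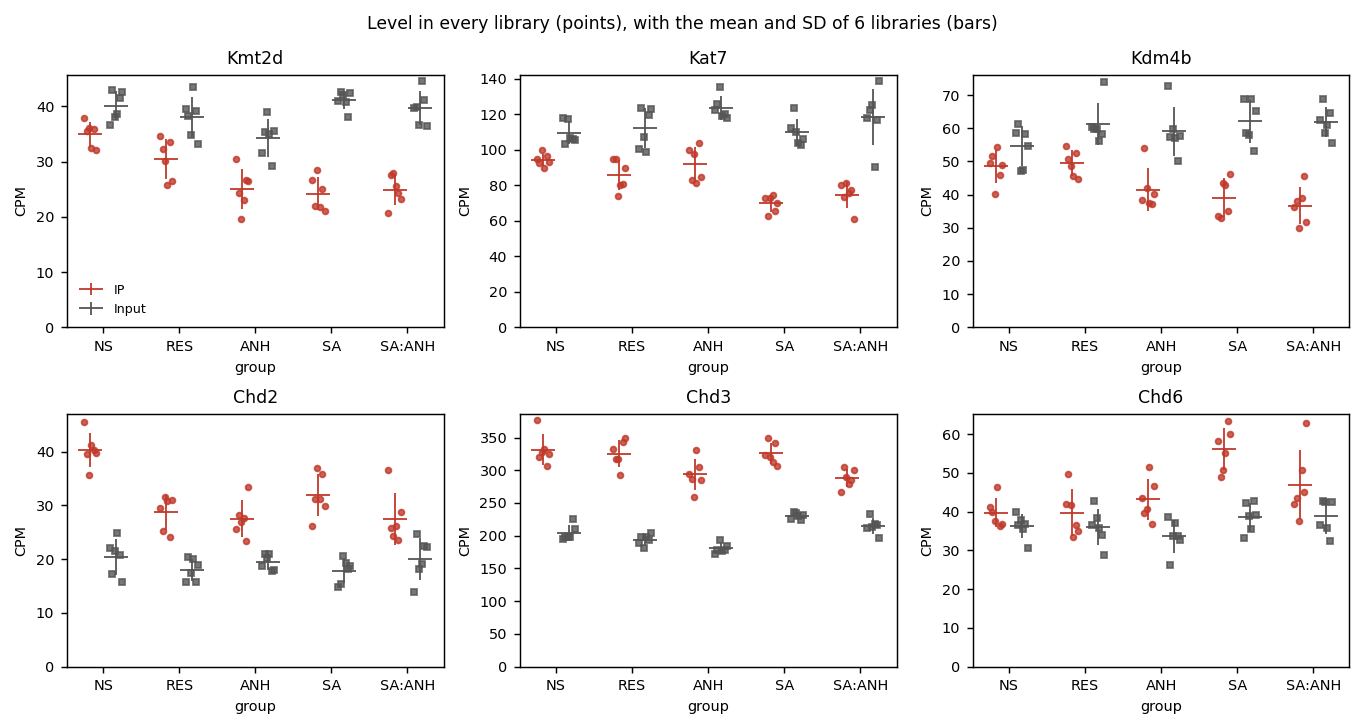
CPM of 6 genes in every IP library (red circles) and Input library (grey squares) by group, with the mean and SD of 6 libraries. In IP, Kmt2d and Kat7 of SA and SA:ANH lie below all NS libraries and Chd6 of SA lies above them, and in Input the groups overlap for these 3 genes.

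SA:ANH neurons showed lower levels only among the genes that passed against NS: Chd2, Chd3, Kmt2d, Kat7, Kat6a, Kdm4b, Hdac6 and Setd3 fell, 8 of 65 genes with none higher, beside 19.7% of all genes passing (11.3% higher and 8.45% lower). The median log2 fold change was -0.04 over the set and 0.01 over all genes.

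Chd2, a remodeler whose loss causes epilepsy in people, ranged over 35.7, 40.0 and 45.5 CPM in NS IP and over 23.5, 26.0 and 36.7 CPM in SA:ANH IP (lowest, median, highest). A single SA:ANH library reached into the NS range (-0.55 ± 0.10, adjusted p = 0.000116). Chd3 had 307, 326 and 376 CPM in NS and 267, 287 and 305 CPM in SA:ANH. No library overlapped (-0.20 ± 0.05, adjusted p = 0.00346).

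Of the methyltransferases and acetyltransferases, Kmt2d stood at 20.7, 24.9 and 28.0 CPM in SA:ANH IP, below all NS libraries (-0.49 ± 0.10, adjusted p = 0.000347). Kat7, at 61.0, 76.6 and 81.2 CPM, was also below all of them (-0.34 ± 0.07, adjusted p = 0.000555). Setd3 fell by a small amount without overlap, from 169 to 186 CPM in NS to 152 to 160 CPM (-0.17 ± 0.04, adjusted p = 0.00499). Kat6a had the largest fall (-0.59 ± 0.18, adjusted p = 0.0184) on low levels, with 10.6 to 16.3 CPM in NS and 6.17 to 14.9 in SA:ANH and overlapping groups. Its relative Kat6b gave -0.06 ± 0.12 (adjusted p = 0.792; 95% interval -0.30 to 0.18).

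The demethylase that passed was Kdm4b (-0.40 ± 0.10, adjusted p = 0.00428), with medians of 49.3 CPM in NS and 37.2 in SA:ANH. The deacetylase was Hdac6, which is mostly cytoplasmic and acts on tubulin (-0.34 ± 0.09, adjusted p = 0.00857), with 50.8 and 37.0 CPM. Both overlapped between groups. Chd6, which passed in SA, had a log2 fold change of 0.24 ± 0.10 here (adjusted p = 0.106). In the same libraries 9 of 9 layer 5 extratelencephalic, 4 of 8 layer 6 and 6 of 10 oligodendrocyte markers fell, and 5 of 5 red cell markers rose. Excitatory markers gave 2 higher and 4 lower of 10, inhibitory markers 2 and 2, and astrocyte markers 1 and 3. Their part in the falls above was not tested.

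In ANH neurons 4 chromodomain helicases and the Kmt2c and Kmt2d pair fell against NS. These 6 of 65 genes, again with none higher, stand beside 7.4% of all genes passing (3.02% higher and 4.37% lower). Chd2 had 23.3, 27.3 and 33.4 CPM in ANH IP, below all NS libraries (-0.55 ± 0.10, adjusted p = 0.000463). Kmt2d, at 19.6, 25.3 and 30.4 CPM, lay below them too (-0.48 ± 0.10, adjusted p = 0.0017). Kmt2c fell by 0.28 ± 0.08 (adjusted p = 0.0204), from a median of 44.2 to 36.6 CPM, with overlap. Kat7, which passed in SA and SA:ANH, gave -0.04 ± 0.07 in ANH (adjusted p = 0.821; 95% interval -0.18 to 0.10).

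The calls of the other helicases in ANH lay near the threshold. Chd8, which binds promoters of neurodevelopmental genes, was at -0.46 ± 0.14 (adjusted p = 0.0409), Chd4, the main NuRD helicase of many tissues, at -0.20 ± 0.06 (adjusted p = 0.0337) and Chd3 at -0.17 ± 0.05 (adjusted p = 0.0308). Without NS IP replicate 1, which had the highest Chd3 level of its group (376 CPM), none of them passed, with log2 fold changes of -0.42 for Chd8 (adjusted p = 0.0857), -0.20 for Chd4 (0.0561) and -0.13 for Chd3 (0.105). Nor did Chd3 pass without ANH IP replicate 2 (-0.16, adjusted p = 0.0634) or Chd4 without ANH IP replicate 4 (-0.18, adjusted p = 0.0837). In ANH IP 9 of 10 oligodendrocyte, 3 of 5 red cell and 2 of 10 inhibitory markers rose. There 8 of 9 layer 5 extratelencephalic and 2 of 8 layer 6 markers fell. Of the excitatory markers Neurod6 (0.32 ± 0.06) and Nrgn (0.16 ± 0.04) rose and Camk2a (-0.17 ± 0.05) fell. The astrocyte marker Gfap rose (1.33 ± 0.31). The part of these marker differences was not tested.

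RES neurons differed from NS in 2 of the 65 genes, both helicases and both lower, beside 4.36% of all genes (2.25% higher and 2.11% lower). Chd2 had 24.2, 30.1 and 31.5 CPM in RES IP, below every NS library (-0.49 ± 0.10, adjusted p = 0.00266). Chd5 fell by 0.24 ± 0.06 (adjusted p = 0.0173) from a median of 116 to 101 CPM, with overlap, and did not pass without NS IP replicate 1 (adjusted p = 0.0544). Kmt2d gave -0.20 ± 0.10 (adjusted p = 0.328; 95% interval -0.39 to -0.00) and Kat7 -0.14 ± 0.07 (adjusted p = 0.331). Here too 9 of 10 oligodendrocyte, 3 of 5 red cell and 2 of 10 inhibitory markers rose in IP, as did the astrocyte marker Gfap (1.45 ± 0.31). Of the others 4 of 9 layer 5 extratelencephalic and 2 of 8 layer 6 markers fell, and excitatory markers gave 1 higher and 4 lower of 10. The part of these marker differences was not tested.

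Chd2 was thus the gene of the set that passed in all 4 IP comparisons with NS, which share the NS libraries. How many of all genes did so was not counted. In Input it passed in none, with medians of 21.2 CPM in NS, 18.1 in RES, 19.5 in ANH, 18.5 in SA and 20.7 in SA:ANH. Chd2 overlaps the long non-coding RNA gene Chaserr on the same strand (588 and 250 counts per library), whose transcript is known to restrain Chd2 in cis. Chaserr was picked after the values of Chd2 were seen. In IP it had levels of 6.49 to 10.6 CPM in NS, 8.63 to 10.8 in RES, 7.70 to 11.1 in ANH, 8.03 to 14.9 in SA and 8.90 to 15.4 in SA:ANH. It rose in SA (0.43 ± 0.15, adjusted p = 0.0364) and SA:ANH (0.47 ± 0.15, adjusted p = 0.0169) and did not pass in ANH (0.22 ± 0.15, adjusted p = 0.438) or RES (0.24 ± 0.15, adjusted p = 0.449). In Input it lay between -0.09 and 0.03 in the 4 subtypes and passed in none. No source used here states how reads in the shared stretch were divided between the genes. Whether Chaserr had a part in the levels of Chd2 was not tested.

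In bulk tissue 3.08% of the 65 genes passed against NS in each of SA, SA:ANH and ANH, and 6.15% in RES. The share of all genes is given beside each count below. SA Input had 2 of 65 genes that passed, both higher, beside 2.83% of all genes (1.23% higher and 1.6% lower): Chd3 (0.17 ± 0.04, adjusted p = 0.00652), with 196, 198 and 226 CPM in NS and 224, 231 and 236 in SA, and the promoter methyltransferase Kmt2b (0.46 ± 0.13, adjusted p = 0.0445), with medians of 9.54 and 13.7 CPM. Both overlapped by the top of the NS range, and Kmt2b did not pass without SA Input replicate 6 (adjusted p = 0.0798). In that setting 5 genes passed in place of 2. Of the 65 genes 27.7% had a log2 fold change below 0 in SA Input, against 50.2% of all genes. In SA Input 6 of 10 oligodendrocyte, 5 of 5 red cell and 3 of 8 layer 6 markers rose, 2 of 10 each of the excitatory, inhibitory and astrocyte markers fell, microglia markers gave 1 higher and 3 lower of 10, and their part was not tested.

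In SA:ANH Input 2 of 65 genes passed, both higher, beside 5.65% of all genes (2.54% higher and 3.1% lower). Kat2a, the acetyltransferase of SAGA, stood at 52.9, 57.6 and 61.5 CPM in NS and at 62.1, 68.0 and 70.4 in SA:ANH, without overlap (0.22 ± 0.06, adjusted p = 0.0218), and Hdac11 rose by 0.15 ± 0.05 (adjusted p = 0.0481). SA:ANH Input replicates 1 and 2 lay apart from the other 4 on the first principal component. Without both, neither gene passed (0.22, adjusted p = 0.0953 for Kat2a and 0.11, adjusted p = 0.34 for Hdac11). In SA:ANH Input 4 of 5 red cell and 3 of 10 oligodendrocyte markers rose, 2 of 10 inhibitory and 3 of 10 astrocyte markers fell, and their part was not tested.

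ANH Input had 2 of 65 genes that passed, both lower, beside 2.62% of all genes (1.57% higher and 1.05% lower). Chd3 fell by 0.18 ± 0.04 (adjusted p = 0.00664), with 173 to 194 CPM in ANH below all NS libraries, and Chd8 fell by 0.44 ± 0.11 (adjusted p = 0.0206), from a median of 17.7 to 12.8 CPM with overlap. RES Input had 4 of 65, beside 3.23% (1.96% higher and 1.27% lower). Chd8 (-0.46 ± 0.11, adjusted p = 0.012), the class I deacetylase Hdac2 (-0.26 ± 0.06, adjusted p = 0.00902) and the methyltransferase Kmt2a (-0.25 ± 0.06, adjusted p = 0.0224) fell, and Kat2a rose (0.25 ± 0.06, adjusted p = 0.0131). In each of these 4 genes the 6 RES libraries lay outside the NS range. Oligodendrocyte markers rose in 8 of 10 in ANH Input and 7 of 10 in RES Input, red cell markers in 5 of 5 and 4 of 5, and 2 of 10 inhibitory markers fell in each, and their part was not tested.

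Whether a gene differed from NS unequally in neurons and bulk tissue was tested directly, as the IP difference minus the Input difference. In SA 5 of 65 genes passed, all negative, beside 9.05% of all genes (4.49% positive and 4.55% negative): Kmt2d (-0.59 ± 0.12, adjusted p = 0.000316), Kdm4b (-0.52 ± 0.13), Kat7 (-0.46 ± 0.10), Kat2a (-0.35 ± 0.09) and Chd3 (-0.22 ± 0.07). Kmt2d in SA Input ranged over 38.0, 41.5 and 42.6 CPM and in NS Input over 36.7, 40.1 and 43.0, and the fall in SA IP stood beside an Input value of 0.04 ± 0.07 (adjusted p = 0.887; 95% interval -0.10 to 0.17). Kat7 likewise gave 0.00 ± 0.07 in SA Input, with medians of 106 CPM in NS and 108 in SA. Kat2a had an Input value of 0.21 ± 0.06 and an IP value of -0.13 ± 0.07, neither of which passed alone. Chd3 had an Input value of 0.17 ± 0.04, which passed, and an IP value of -0.02 ± 0.05, which did not.

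In SA:ANH 10 of 65 genes passed, all negative, beside 15.2% of all genes (7.14% positive and 8.06% negative). Acetyltransferases and methyltransferases among them were Kat6a (-0.86 ± 0.24), Kmt2d (-0.51 ± 0.12), Kat7 (-0.48 ± 0.10), Kat2a (-0.27 ± 0.09) and Setd3 (-0.23 ± 0.07). The demethylase was Kdm4b (-0.61 ± 0.13), the deacetylases Hdac6 (-0.60 ± 0.13) and Hdac5 (-0.36 ± 0.11), and the helicases Chd2 (-0.56 ± 0.16) and Chd3 (-0.30 ± 0.07). Of the 65 genes 78.5% had a negative value, against 49.4% of all genes, with medians of -0.13 and 0.01. The rank correlation of this value with exon length was -0.27 over all genes tested and 0.15 over the 65 genes. The part of length in the share of negative values was not tested. Without SA:ANH Input replicates 1 and 2, Hdac5, Kat2a and Setd3 did not pass (adjusted p = 0.0683, 0.0853 and 0.102). Markers differed between fractions by the same test: in SA 7 of 10 oligodendrocyte, 5 of 10 excitatory and 3 of 8 layer 6 markers were negative and 5 of 10 endothelial and mural and 3 of 5 red cell markers positive, and in SA:ANH 8 of 9 layer 5 extratelencephalic and 6 of 10 oligodendrocyte markers were negative and 3 of 5 red cell markers positive. Their part was not tested. In ANH and RES none of the 65 passed by edgeR or by DESeq2. Of all genes 3.62% (1.77% positive, 1.85% negative) passed in ANH and 2.69% (1.41% positive, 1.28% negative) in RES. Among the 65, 9 and 7 had an unadjusted p under 0.05 by edgeR, and the share of all genes with such a p was not counted.

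**Figure D5:**
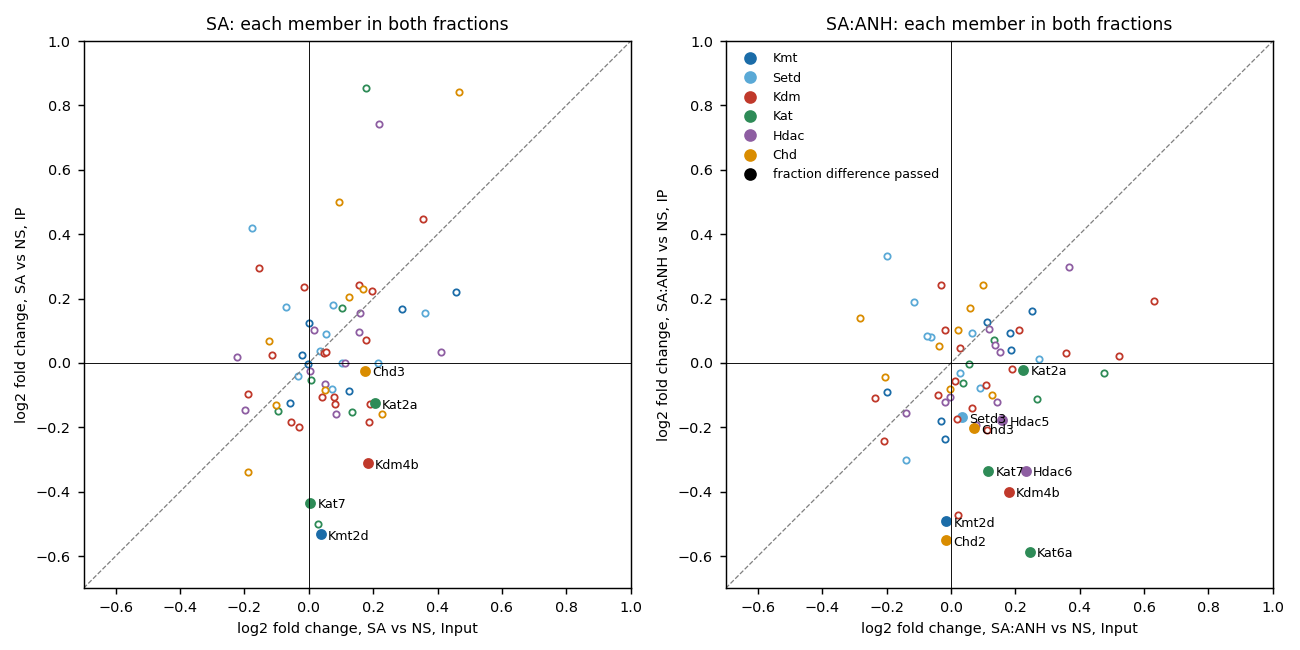
Log2 fold change against NS in IP (vertical) and in Input (horizontal) for each of the 65 genes, in SA (left) and SA:ANH (right); the dashed line marks equal values and filled, named points passed the test of the fraction difference. All 5 named genes in SA and all 10 in SA:ANH lie below the line.

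Against RES in place of NS, the same SA IP libraries had lower Kmt2d and Kat7 and higher Chd6, and Chd5 passed without overlap. Calls shared with the NS comparison are therefore not independent of it. In IP 6 of 65 genes passed, beside 11.6% of all genes (6.83% higher and 4.8% lower). Chd5 ranged over 89.7, 101 and 103 CPM in RES and 120, 132 and 144 in SA, with no overlap (0.44 ± 0.06, adjusted p = 2.25e-06). Chd6 (0.50 ± 0.10) and Hdac11 (0.17 ± 0.05) were higher, and Kdm4b (-0.34 ± 0.10), Kmt2d (-0.33 ± 0.10) and Kat7 (-0.29 ± 0.07) lower, all with overlap, and Kdm4b did not pass without SA IP replicate 5 (adjusted p = 0.0541). In SA Input 3 of 65 passed against RES, all higher, beside 1.1% of all genes (0.44% higher and 0.66% lower): Hdac4 (0.32 ± 0.06), Chd3 (0.25 ± 0.04) and Chd5 (0.21 ± 0.05). Chd3 and Chd5 did not overlap between these groups, with Chd3 at 181 to 204 CPM in RES and 224 to 236 in SA. Between these groups in IP 9 of 10 oligodendrocyte and 4 of 10 inhibitory markers were lower and 7 of 9 layer 5 extratelencephalic markers higher, and excitatory and astrocyte markers each gave 1 higher and 5 lower of 10. In Input 6 of 10 oligodendrocyte markers were lower and 3 of 5 red cell markers higher. The part of these differences was not tested.

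SA:ANH IP against RES gave 4 of 65 genes, all lower, beside 13.8% of all genes (8.21% higher and 5.61% lower): Kdm4b (-0.43 ± 0.10), Kmt2d (-0.29 ± 0.10), Setd3 (-0.22 ± 0.04) and Chd3 (-0.18 ± 0.05). Setd3 did not overlap, at 165 to 203 CPM in RES and 152 to 160 in SA:ANH. Kmt2d did not pass without SA:ANH IP replicate 1 (adjusted p = 0.103) or replicate 5 (adjusted p = 0.0587). In SA:ANH Input 1 gene passed against RES, Kmt2e (0.24 ± 0.06, adjusted p = 0.0417), beside 0.693% of all genes (0.319% higher and 0.374% lower). Against RES, 10 of 10 oligodendrocyte, 8 of 9 layer 5 extratelencephalic, 4 of 10 inhibitory and 3 of 8 layer 6 markers were lower in SA:ANH IP, astrocyte markers gave 1 higher and 4 lower of 10, and 7 of 10 oligodendrocyte markers were lower in SA:ANH Input. Their part was not tested.

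ANH IP against RES gave 1 gene, Hdac5 (0.25 ± 0.08, adjusted p = 0.0444), beside 9.21% of all genes (3.78% higher and 5.43% lower), and it did not pass without ANH IP replicate 2 (adjusted p = 0.0852) or replicate 4 (adjusted p = 0.0955). In ANH Input Hdac2 (0.24 ± 0.06, adjusted p = 0.0125) and Kmt2e (0.24 ± 0.06, adjusted p = 0.0129) were higher than in RES, beside 4.22% of all genes (2.48% higher and 1.73% lower). Kmt2e did not overlap there, at 46.3 to 54.8 CPM in RES and 55.0 to 66.3 in ANH. Against RES, 5 of 10 oligodendrocyte markers were lower in ANH IP, excitatory markers gave 6 higher and 1 lower of 10, layer 5 extratelencephalic markers 1 higher and 6 lower of 9, and in ANH Input 4 of 10 oligodendrocyte and 3 of 5 red cell markers were higher. Their part was not tested.

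Partners of these enzymes were read from 10 lists holding 187 other chromatin genes. Against NS in IP, 25 of 186 tested passed in SA (10 higher, 15 lower), 25 in SA:ANH (11 and 14), 12 in ANH (6 and 6) and 10 in RES (1 and 9). These are 13.4%, 13.4%, 6.45% and 5.38%, beside 16.6%, 19.7%, 7.4% and 4.36% of all genes. Of the 13 partners of the Kmt2 methyltransferases, the shared subunit Rbbp5 fell in SA (-0.39 ± 0.09, adjusted p = 0.0027) and SA:ANH (-0.33 ± 0.09, adjusted p = 0.00975), and Dpy30 rose in both (0.24 ± 0.08 and 0.34 ± 0.08). In SA 2 of the 13 rose and 2 fell, and in SA:ANH 2 rose and 3 fell. Of 26 deacetylase partners and sirtuins, 1 rose and 2 fell in SA and 2 rose and 1 fell in SA:ANH. Of 27 other ATP-dependent remodelers 1 rose and 3 fell in SA and 2 rose and 4 fell in SA:ANH. Smarca4, the ATPase of BAF complexes, fell in all 4, by 0.22 ± 0.04 in SA, 0.27 ± 0.04 in SA:ANH, 0.29 ± 0.04 in ANH and 0.30 ± 0.04 in RES. Among 11 bromodomain readers, 1 rose and 2 fell in SA and 1 rose and 3 fell in SA:ANH. These 4 comparisons share the NS libraries.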

How the data were processed

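The authors deposited 1 table of expected counts per gene (estimated counts that need not be whole) for 60 libraries. Of the values 88.4% were whole within 1e-06, which is where the unit was read from. Alignment tools were TopHat2 2.0.13 and Bowtie2 2.2.3, after Trimmomatic 0.32, with mm10 as the build, per the submitters' processing notes. No source used here names the counting tool or its strand setting. Libraries were amplified with SMART-Seq, per the labels' protocols.

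Counts were rounded, scaled by TMM and tested with edgeR 4.0.16 (R 4.3.3) over all genes kept by filterByExpr (minimum count 10): 16670 in IP, 18170 in Input and 18937 in both. Fits held all 5 groups of a fraction, or all 10, with Benjamini-Hochberg adjustment at 0.05. Errors on fold changes are SE (the size of the fold change over the root of the F statistic, with normal 95% intervals) and those on levels SD. DESeq2 1.42.0, RLE factors, no filter, a replicate block, the 12 libraries compared alone, and omission of outlying libraries were alternatives; not every library was left out. The fitting script was tested on simulated data. Libraries of a group differed by more than counting noise (chi-square per degree of freedom 7.32 to 25.4), so none was counted as a repeated deposit, which does not show that they are separate animals.

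The genes and lists were chosen with earlier results of these data known. Named genes are those that passed in a comparison, the 5 extremes between fractions, the 5 smallest p of the any-group tests, fixed groups of relatives, and up to 4 genes of smallest p in a list of other chromatin genes. Some genes that this rule picks are not reported here.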

Additional observations from a re-analysis of the deposited data

Results flagged for a closer look

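Of 125 sets of 6 libraries examined for genes that passed a test, 11 held 1 library whose gap to the next exceeded Dixon's critical value; chance gives about 1 set in 20. In IP these were Chd3 in NS replicate 1 (376 CPM, others 307 to 332), Chd4 in SA:ANH replicate 5 (64.4, others 69.1 to 71.1), Hdac5 in SA replicate 5 (121, others 107 to 112), Hdac6 and Kat6a in SA:ANH replicate 1 (51.2, others 32.5 to 39.1, and 14.9, others 6.17 to 9.14), Kdm4b in ANH replicate 2 (54.1, others 37.0 to 42.0), Kmt2c in ANH replicate 4 (40.2, others 35.7 to 36.8) and Setd3 in SA replicate 5 (180, others 167 to 171). In Input they were Chd5 in SA:ANH replicate 4 (125, others 96.7 to 107), Hdac2 in SA replicate 6 (79.1, others 66.8 to 71.1) and Kmt2b in NS replicate 2 (12 CPM, others 8.84 to 9.72).

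The difference from NS was unequal in IP and Input by the interaction test for 15 values on the log2 scale (IP minus Input). In SA these were Chd3 (-0.22), Kat2a (-0.35), Kat7 (-0.46), Kdm4b (-0.52) and Kmt2d (-0.59). In SA:ANH they were Chd2 (-0.56), Chd3 (-0.30), Hdac5 (-0.36), Hdac6 (-0.60), Kat2a (-0.27), Kat6a (-0.86), Kat7 (-0.48), Kdm4b (-0.61), Kmt2d (-0.51) and Setd3 (-0.23).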

How the results depend on the processing

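No fold change reversed. Counts of genes passing stayed within 1.5 times of those reported except as follows. ANH against NS in IP gave 3 in place of 6 with no filter and with the 12 libraries alone. SA against NS in Input gave 1 in place of 2 with no filter and 6 with DESeq2. SA:ANH against NS in Input gave 1 in place of 2 with no filter and with the 12 libraries alone, 4 with DESeq2 and 0 without replicates 1 and 2 of SA:ANH Input. ANH against NS in Input gave 4 in place of 2 with the 12 libraries alone and with DESeq2. ANH against RES in IP gave 2 in place of 1 with RLE factors, 0 with no filter and 6 with DESeq2. SA:ANH against RES in Input gave 0 in place of 1 with no filter and with the 12 libraries alone, and 2 with DESeq2. ANH against RES in Input gave 4 in place of 2 with DESeq2. The cause was not tested.

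Leaving out single outlying libraries gave 3 to 5 genes for ANH against NS in IP, 1 for RES against NS in IP, 2 to 5 for SA against NS in Input and 1 to 3 for ANH against RES in IP. These omissions, and that of SA:ANH Input replicates 1 and 2, were chosen after seeing the data.

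Libraries of equal replicate number did not deviate together (mean correlation 0.00 within IP, 0.02 within Input, 0.01 between IP and Input), so the numbers were not taken as pairs. A replicate block gave 4 in place of 2 for SA and for SA:ANH against NS in Input and for ANH against RES in Input, and took Hdac5 in ANH against RES in IP to an adjusted p of 0.0501. Of 75 single-gene values, DESeq2 and RLE factors lost none, no filter lost 13, the 12 libraries alone 6 (fitted for the subtype comparisons within a fraction) and the block 1. Library number and spread limit precision: the median SE of a log2 fold change over the 65 genes was 0.118 in SA against NS in IP and 0.109 in Input, and changes several times that size could be missed.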
